A study of Mus musculus with 2 samples.

Results

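Hand1, Hand2, Twist1, Twist2 and Tcf21, transcription factors related to Twist, were described across the cell classes of the mouse heart at stage E11.5. They were taken by name as members of 1 gene family, with no threshold on a measured value, and all 5 were among the 22401 features of the deposited matrices. Single-cell RNA sequencing counted UMIs (unique molecular identifiers, each standing for 1 captured transcript) in whole dissociated hearts, with 1 library per genotype. Control embryos were Hand2fx/+ R26RmTmG/wt without Cre, so their floxed Hand2 allele was not recombined. H2CKO embryos were Nfatc1Cre/wt Hand2fx/fx R26RmTmG/wt. Nfatc1-Cre is known to recombine in endocardium, which lines the heart chambers, and marks what descends from it. The mTmG reporter was present once in each genotype and switches from Tomato to GFP upon recombination. The labels do not give the number of embryos in each library. With 1 library per genotype there is no replicate check, so no difference below has a test, and every interval covers counting error only.

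The proteins of this family share a basic helix-loop-helix domain, with which they bind DNA at E-boxes (CANNTG), usually as dimers with the widely made E proteins. Id proteins have the dimerization domain without the basic region and hold E proteins away from them. In the embryonic heart Hand1 is known from the left ventricle and outflow tract, Hand2 from the right ventricle, endocardium, cushions and epicardium, Twist1 from the cushion mesenchyme that forms the valves, and Tcf21 from the epicardium and its fibroblast descendants. Twist2 is the closest relative of Twist1 and is best known from dermis and other connective tissue.

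Per the GENCODE M21 annotation of GRCm38, the genes lie apart on 5 chromosomes. Hand1 (ENSMUSG00000037335) spans chr11:57828705-57832818 on the minus strand and Hand2 (ENSMUSG00000038193) chr8:57320983-57324633 on the plus strand. Twist1 (ENSMUSG00000035799) spans chr12:33957671-33959829 on the plus strand. Twist2 (ENSMUSG00000007805) spans chr1:91801461-91848028 on the plus strand, and Tcf21 (ENSMUSG00000045680) chr10:22817281-22820174 on the minus strand. The 250 bases before the start are shown for Hand2, the deleted gene, and Twist1, which was also lower in mesenchymal-like H2CKO cells. They come from RefSeq (GRCm38.p6), which matched 4 of the 5 members, and both are on the plus strand, at chr8:57320733-57320982 and chr12:33957421-33957670. Capitals mark the E-box letters CANNTG, which read the same on both strands.
Hand2: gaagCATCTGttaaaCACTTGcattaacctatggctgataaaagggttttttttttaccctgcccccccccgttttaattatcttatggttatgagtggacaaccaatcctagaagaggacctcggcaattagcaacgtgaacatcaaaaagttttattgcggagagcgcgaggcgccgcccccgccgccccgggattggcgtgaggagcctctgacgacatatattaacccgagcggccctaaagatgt
Twist1: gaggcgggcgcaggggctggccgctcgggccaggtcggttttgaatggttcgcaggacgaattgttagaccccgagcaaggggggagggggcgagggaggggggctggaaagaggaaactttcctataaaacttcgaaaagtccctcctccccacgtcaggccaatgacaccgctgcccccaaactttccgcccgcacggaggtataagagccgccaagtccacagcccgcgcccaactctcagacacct
Hand2 held 2 such matches, CATCTG and CACTTG, and the other 3 members matched (Twist1, Twist2 and Tcf21) held 0. Of 32851 promoter windows of this length, 66.2% held CANNTG and 14.4% held CAGATG or CATCTG, which are the same site read on either strand and are counted in the first share too. A match is a run of letters, not a measured site.

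The control matrix held 14114 barcodes and 195825720 UMIs and the H2CKO matrix 13885 barcodes and 201477256 UMIs, with 57 barcodes in both. After filters 8921 control and 11533 H2CKO cells were kept, at medians of 16250 and 13432 UMIs. Classes were named by marker genes that did not include the members, and the members took no part in the clustering. Cardiomyocyte-like cells numbered 2151 in the control and 4051 in H2CKO, mesenchymal-like cells 1757 and 1177, epicardial-like cells 695 and 207, and endothelial-like cells 123 and 487. There were 72 and 85 white blood cell-like and 2714 and 4980 erythroid-like cells. A further cluster of 259 and 262 cells had 11 of 12 endothelial markers detected but was led by Stmn2, a neuronal marker. It stayed unnamed and is called the second endothelial cluster. A cluster of 1150 control and 284 H2CKO cells at a median of 1610 UMIs stayed unnamed and is not described. Shares of cells with a UMI are given after every cell was thinned to 5000 UMIs, which left out 1153 control and 663 H2CKO cells as too shallow.

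Hand2, the deleted gene, is given first as the check of the labels. Levels are UMIs of a gene per 1000000 UMIs of the same class and library (CPM), with exact 95% Poisson intervals in parentheses. Endothelial-like control cells held Hand2 at 170.3 CPM (153 to 189) and the H2CKO cells at 13.1 CPM (10.4 to 16.2), which is 13.0-fold lower (exact interval 10.2 to 16.8). The second endothelial cluster held 253 CPM (238 to 268) against 7.39 CPM (4.68 to 11.1) in H2CKO, 34.2-fold lower (22.7 to 54.2). After thinning, a Hand2 UMI was found in 59.0% of endothelial-like control cells and 6.32% of the H2CKO cells. Erythroid-like cells, which should lack all 5 genes, gave the level to set beside these, 2.89 CPM with 1.52% of thinned cells in the control and 1.56 CPM with 0.666% in H2CKO. What remained of Hand2 in the endothelial classes of H2CKO thus lay above the erythroid-like level. White blood cell-like H2CKO cells held Hand2 at 5.80 CPM (2.51 to 11.4), which overlaps the second endothelial cluster. GFP went the other way, from 13.3 to 961 CPM in endothelial-like cells and from 18.0 to 1643 CPM in the second endothelial cluster. In endothelial-like H2CKO cells Hand2 was at 9.52 CPM (6.80 to 13.0) in the 298 cells with a GFP UMI. The 189 cells without one held 20.1 CPM (14.5 to 27.1), so Hand2 was low there too. The class held 123 control and 487 H2CKO cells, and the part of its make-up in the fold was not tested. Control cells, which carry no Cre, held GFP at 0.527 to 18.0 CPM over the 7 classes. Tomato in endothelial-like cells was at 17.7 CPM in the control against 3.31 CPM in H2CKO. It was also lower in cardiomyocyte-like cells, at 16.8 against 4.60 CPM, where GFP was at 10.5 against 10.1 CPM. Whether the 3' tags counted for Hand2 lie inside the deleted part of the gene is not given in the sources used here.

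**Figure D1:**
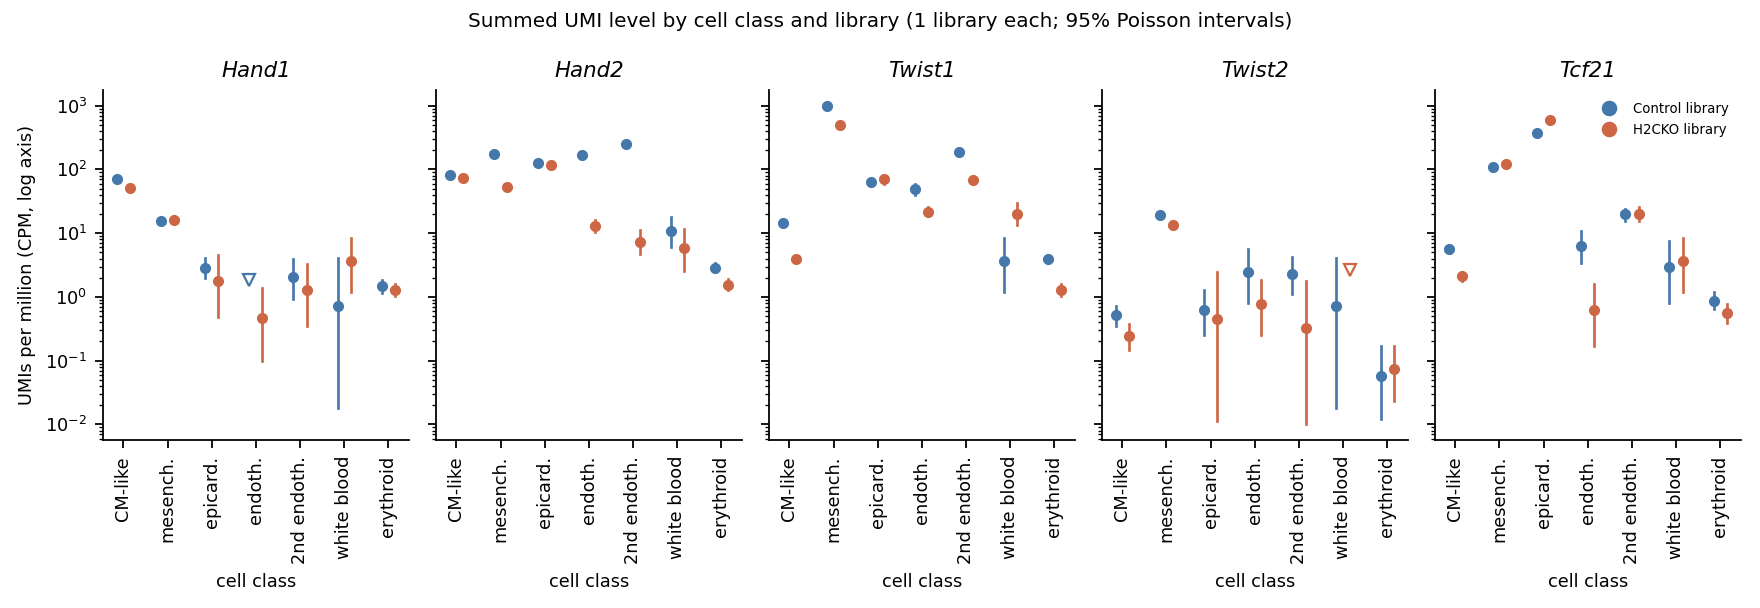
Summed level of each member (CPM, log axis) in 7 cell classes of the control (blue) and H2CKO (orange) libraries, 1 library each. Points are levels, lines 95% Poisson intervals, and open triangles the upper limit where no UMI was counted. Hand1 is highest in cardiomyocyte-like, Twist1 and Twist2 in mesenchymal-like and Tcf21 in epicardial-like cells of both libraries, and Hand2 separates by genotype most in the endothelial classes.

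Each member had its own order of classes. Hand1 was highest in cardiomyocyte-like cells, at 71.3 CPM in the control and 50.6 CPM in H2CKO. Mesenchymal-like cells came next at 15.3 and 16.2 CPM. In the other 5 classes Hand1 lay between 0 and 3.63 CPM, and the neighbours among them overlapped in their intervals. Cardiomyocyte-like cells held 85.0% of the control library's Hand1 UMIs and 92.3% of those in H2CKO.

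Hand2 was broad in the control. In the classes as drawn here its order ran from the second endothelial cluster (253 CPM) through mesenchymal-like (175 CPM), endothelial-like (170.3 CPM), epicardial-like (125 CPM) and cardiomyocyte-like cells (82.3 CPM) to white blood cell-like (10.9 CPM) and erythroid-like cells. Mesenchymal-like and endothelial-like cells did not differ beyond counting error, and the other neighbours did. Mesenchymal-like or endothelial-like cells came first under 6 of 8 alternative ways of choosing or classing the cells. In H2CKO the order was led by epicardial-like (115 CPM) and cardiomyocyte-like cells (74.5 CPM), with mesenchymal-like cells at 53.1 CPM below them.

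Twist1 was concentrated in mesenchymal-like cells, at 974 CPM in the control and 493 CPM in H2CKO, where 89.4% and 86.5% of its UMIs were. The second endothelial cluster followed in the control at 187 CPM, then epicardial-like (64.5 CPM) and endothelial-like cells (49.2 CPM). Cardiomyocyte-like cells held 14.6 CPM in the control and 3.92 CPM in H2CKO, beside 3.96 and 1.30 CPM in erythroid-like cells. Of the 877 control and 321 H2CKO Twist1 UMIs in cardiomyocyte-like cells, 490 and 138 were in subcluster 10. It is described below and was led by Col3a1, Fbln2 and Upk3b, genes of mesenchyme and epicardium. Mesenchymal markers summed to 588 and 253 CPM in the cardiomyocyte-like cells, and their part in this Twist1 signal was not tested.

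Twist2 was highest in the same class, with 19.1 CPM (17.4 to 20.9) in mesenchymal-like control cells and 13.4 CPM (11.4 to 15.5) in H2CKO. It stayed at or under 2.46 CPM in the other 6 classes of both libraries. Tcf21 was highest in epicardial-like cells, at 374 CPM in the control and 585 CPM in H2CKO, and next in mesenchymal-like cells at 109 and 120.3 CPM. The second endothelial cluster held Tcf21 at 19.6 and 19.9 CPM, with up to 21 UMIs in 1 control cell, and the other 4 classes were at or below 6.40 CPM.

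Genotype was compared within each class by the log2 ratio of CPM plus 5, H2CKO over control. A gene was tested where the higher library held at least 20 CPM and 20 UMIs, and was past 2-fold where the ratio reached 1 or -1. A summed level alone does not tell fewer expressing cells from less RNA per cell. Shares of thinned cells with a UMI add to it. In mesenchymal-like cells the Hand2 shares were 55.6% in the control and 17.7% in H2CKO, and the Twist1 shares 91.5% and 79.5%. In mesenchymal subcluster 5, described below, the Twist1 shares were 99.5% and 89.6%. Of the 5 members, 2 were tested in cardiomyocyte-like cells and 0 were past 2-fold, where 0.853% of all genes tested were past it lower and 0.231% higher. In mesenchymal-like cells 3 were tested and 1 (Hand2) was past 2-fold lower, where 3.91% of genes were past 2-fold in either direction and 3.49% lower. In epicardial-like cells 3 were tested and 0 were past 2-fold, against 5.46% of genes lower and 0.542% higher. In endothelial-like cells both members tested, Hand2 and Twist1, were past 2-fold lower, where 9.76% of genes were past it in either direction and 8.34% lower. The same 2 members were lower in the second endothelial cluster, against 4.03% of genes in either direction and 3.43% lower. In white blood cell-like cells 1 member (Twist1) was tested and was past 2-fold higher, against 7.46% in either direction and 1.03% higher. No member reached the level for testing in erythroid-like cells, and Twist2 reached it in none of the 7 classes.

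**Figure D2:**
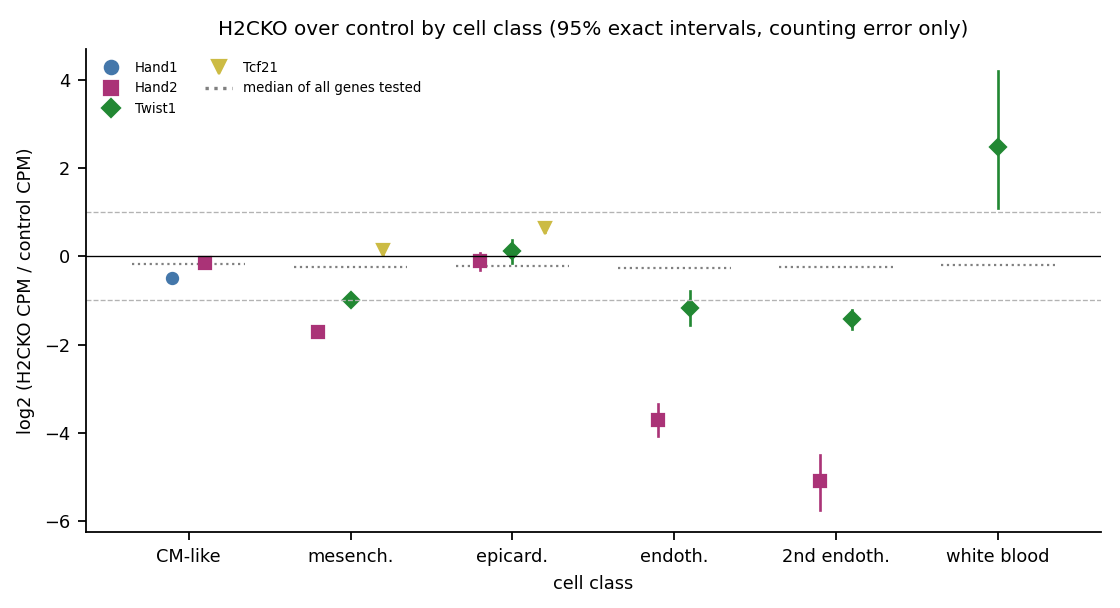
Log2 of the H2CKO over the control level for the members tested in each of 6 cell classes, with exact 95% intervals for counting error. Dotted lines mark the median of all genes tested in the class, dashed lines the 2-fold limits. Hand2 is lowest in both endothelial classes and is near 0 in cardiomyocyte-like and epicardial-like cells. The values plotted have no offset of 5 CPM and so lie farther from 0 than those in the text.

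In mesenchymal-like cells, which at this stage include the cushion cells that arise from endocardium, control Hand2 was at 175 CPM and H2CKO Hand2 at 53.1 CPM (49.2 to 57.3), or -1.63 as a log2 ratio and 3.29-fold lower (3.03 to 3.57). Twist1, a factor of cushion mesenchyme, stood at 974 CPM (961 to 986) and 493 CPM (481 to 505), 1.98-fold lower (1.92 to 2.03) with -0.98 on the log2 scale, just short of the 2-fold limit. Tcf21, at 109 CPM (105 to 114) and 120.3 CPM (114 to 127), and Hand1, at 15.3 CPM (13.8 to 16.9) and 16.2 CPM (14.0 to 18.5), were near equal in level between the libraries. The median log2 ratio of all genes tested in the class was -0.24. The 12 mesenchymal markers that named the class, all above 20 CPM in both libraries, summed to 6819.9 CPM in the control against 3238 CPM in H2CKO, so they were lower along with Twist1. Erythroid markers summed to 12363 against 54015 CPM in these cells, and the part of either list in the ratios was not tested.

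Clustering the mesenchymal-like cells again, an alternative added after the class values had been seen, gave 8 subclusters. The members and both reporters took no part in it. GFP separated them in H2CKO. Subclusters 2, 4, 5 and 6 held GFP at 1328, 1426, 1537.5 and 1622 CPM, and subclusters 1, 3 and 7 at 77.0, 92.2 and 89.2 CPM. Subclusters 4 and 5 were led by S phase and G2/M genes, subcluster 2 by genes that include Tbx2, Msx1 and Mstn, and subcluster 6 by genes that include Pf4, a platelet and macrophage gene, Nkd1 and Wnt16. Subclusters 1 and 3 shared Stmn4, Inhba and Sfrp2 among their leading genes, and Penk led subcluster 3. Subcluster 7 was led by Upk3b, Wt1 and Dcn, of which Upk3b and Wt1 are epicardial markers. Subcluster 8, with 26 control and 78 H2CKO cells, was led by globin genes and is left out below.

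**Figure D3:**
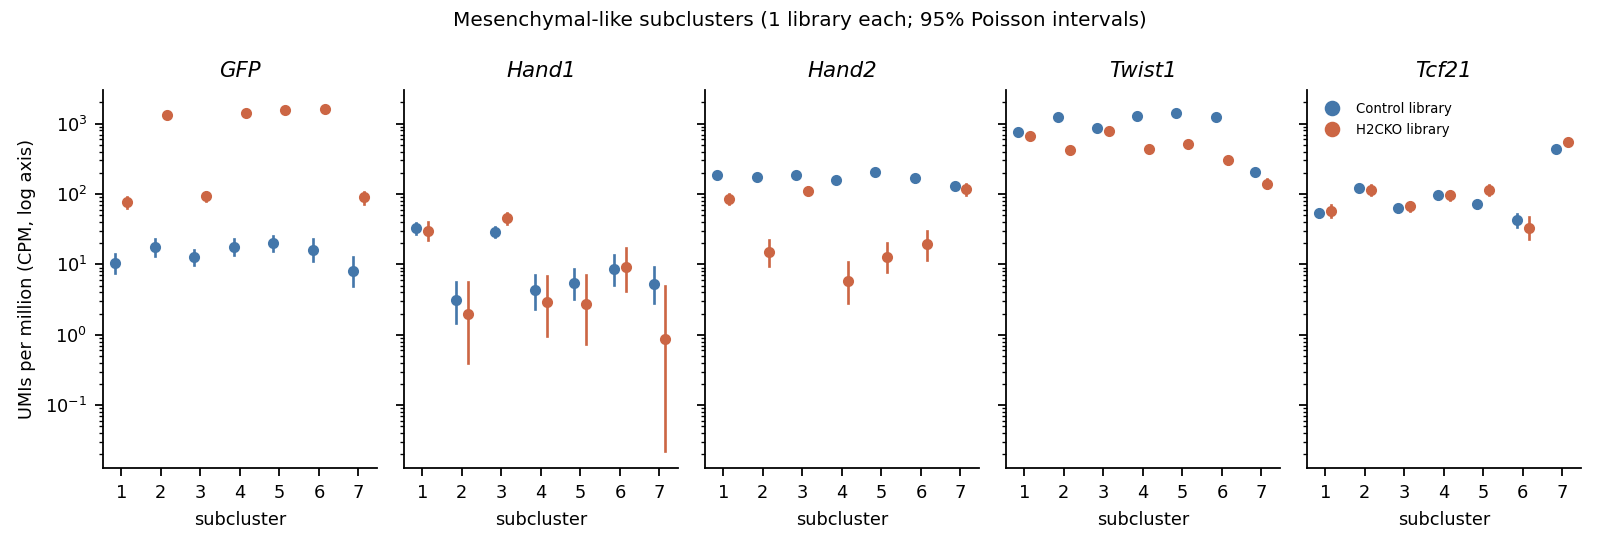
Levels (CPM, log axis) of GFP and 4 members in mesenchymal-like subclusters 1 to 7 of the control (blue) and H2CKO (orange) libraries, with 95% Poisson intervals. Subclusters 2, 4, 5 and 6 hold GFP at 1328 to 1622 CPM in H2CKO, and there Hand2 and Twist1 lie well below the control. Hand1 is highest in subclusters 1 and 3, and Tcf21 in subcluster 7.

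In the 4 subclusters rich in GFP, Hand2 in H2CKO was near its level in the endothelial classes. It was at 174 CPM in the control and 14.9 CPM in H2CKO in subcluster 2, at 160.4 and 5.84 CPM in subcluster 4, at 207 and 12.9 CPM in subcluster 5, and at 166 and 19.2 CPM in subcluster 6. The folds were 11.7 (7.69 to 18.5), 27.5 (14.8 to 57.6), 16.0 (10.2 to 26.8) and 8.69 (5.47 to 14.6) lower.

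Twist1 was also past 2-fold lower in each of these 4 subclusters. It was at 1239 CPM in the control and 426 CPM in H2CKO in subcluster 2, and at 1270.1 and 438 CPM in subcluster 4. Subcluster 5 held 1425 and 514 CPM, and subcluster 6 held 1231 and 301 CPM. The folds were 2.91 (2.68 to 3.17), 2.90 (2.68 to 3.14), 2.77 (2.56 to 3.00) and 4.08 (3.62 to 4.62) lower. Of the 3 members tested there, Hand2 and Twist1 were past 2-fold lower in all 4 subclusters, where 7.87%, 6.40%, 5.66% and 7.94% of genes tested were lower by that much. Tcf21, the third, was at 122 and 114 CPM in subcluster 2, at 96.3 and 95.7 CPM in subcluster 4, at 71.1 and 114 CPM in subcluster 5, and at 42.5 and 33.3 CPM in subcluster 6. Twist1 was thus lower by 2.77-fold or more where Tcf21 was between 1.28-fold lower and 1.61-fold higher.

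Twist1 in subclusters poor in GFP was close between the libraries. Subcluster 1 held 753 CPM in the control and 676 CPM in H2CKO, 1.11-fold lower (1.04 to 1.19), and subcluster 3 held 858 and 791 CPM, 1.09-fold lower (1.03 to 1.14). Subcluster 7 held 207 and 141 CPM, 1.47-fold lower (1.23 to 1.77). The log2 ratios of Twist1 ran from -2.01 to -1.46 in the subclusters rich in GFP and from -0.54 to -0.12 in the others, so the ranges did not overlap. The difference between these groups of subclusters has no test over samples.

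Hand2 was lower in subclusters 1 and 3 too, by less. It was at 185 CPM in the control and 86.0 CPM in H2CKO in subcluster 1, 2.15-fold lower (1.80 to 2.59), and at 184 and 112 CPM in subcluster 3, 1.65-fold lower (1.44 to 1.89). In subcluster 7 it was at 130 CPM (116 to 145) and 117 CPM (98.2 to 139). Of the 5 members tested in subcluster 1, Hand2 was past 2-fold lower, against 4.17% of genes. None of the 5 tested in subcluster 3 or the 3 tested in subcluster 7 was past 2-fold lower, against 1.95% and 6.50% of genes.

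Mesenchymal Hand1 lay in subclusters 1 and 3. It was at 32.4 CPM in the control and 30.1 CPM in H2CKO in subcluster 1, and in subcluster 3 at 28.8 CPM (24.5 to 33.6) and 45.0 CPM (37.0 to 54.3). The other 5 subclusters shown held 0.874 to 9.07 CPM in either library. Twist2 was highest in the same subclusters, at 38.5 and 35.5 CPM in subcluster 1 and at 29.2 and 28.5 CPM in subcluster 3. In subclusters 2, 4 and 5 it was at 12.1 to 13.4 CPM in the control and 1.75 to 6.50 CPM in H2CKO, below the level for testing. The counts behind this were 39 and 10 UMIs in subcluster 2, 44 and 3 in subcluster 4, and 42 and 6 in subcluster 5.

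The mesenchymal-like cells of H2CKO were also divided by GFP in single cells. Without thinning, 419 of 1177 cells had a GFP UMI, which is 35.6%, beside 16.8% of the control cells, which carry no Cre. After thinning these shares were 32.6% and 7.46%. At least 3 GFP UMIs were found, again without thinning, in 27.4% of the H2CKO and 0.512% of the control cells, so a single GFP UMI marks recombination only loosely. Hand2 was at 22.3 CPM (18.1 to 27.1) in the 419 H2CKO cells with a GFP UMI and 70.0 CPM (64.4 to 76.0) in the 758 cells without one. Twist1 was at 427 CPM (408 to 447) and 529 CPM (513 to 545), and Hand1 at 4.05 CPM (2.40 to 6.40) and 22.8 CPM (19.6 to 26.3). Tcf21 was at 99.9 and 131 CPM. All 4 were lower in cells with a GFP UMI, Twist1 by no more than Tcf21, at median depths of 9539 and 9917 UMIs. A cell without a GFP UMI at this depth may still have been recombined. The split also separates subclusters, with a GFP UMI in 49.8% to 61.7% of H2CKO cells of subclusters 2, 4, 5 and 6. In subclusters 1, 3 and 7 these shares were 10.3% to 16.6%. Without Cre, Twist1 was at 1231 to 1425 CPM in the first 4 and 207 to 858 CPM in the others. Control Tcf21 was highest in subcluster 7, at 430 CPM. The split thus compares cells whose levels also differed in the control.

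Both endothelial classes held less Twist1 as well as less Hand2 in H2CKO. Endothelial-like control cells held Twist1 at 49.2 CPM (40.1 to 59.9) and the H2CKO cells at 21.8 CPM (18.3 to 25.7), 2.26-fold lower (1.73 to 2.95) or -1.02 as a log2 ratio. In the second endothelial cluster it was at 187 CPM (174 to 200.3) and 69.4 CPM (60.5 to 79.3), 2.70-fold lower (2.32 to 3.15) or -1.37 as a log2 ratio. The mesenchymal markers summed to 899 CPM in the control and 251 CPM in H2CKO in endothelial-like cells and to 2595 and 826 CPM in the second endothelial cluster. Those of the 12 markers above 20 CPM went from 6 to 3 and from 10 to 5, and erythroid markers in the second endothelial cluster were at 15056 against 50014 CPM. Their part in Twist1 was not tested. In endothelial-like cells the sign turned (0.39) when neighbours were not balanced between the libraries, so this value depends on how the class was drawn. It was -1.85 with no doublets removed and -0.76 when centred on the median gene, which is within 2-fold. Tcf21 was not tested in endothelial-like cells, at 13 UMIs in the control and 4 in H2CKO. Hand1 had no UMI in 123 endothelial-like control cells, with an exact upper limit of 1.82 CPM, and 3 UMIs in 487 H2CKO cells.

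Epicardial-like cells, the outer layer of the heart, held Hand2 in both libraries. Its level was 125 CPM (118 to 132) without Cre against 115 CPM (102 to 130) with it. Twist1 was at 64.5 CPM (59.9 to 69.4) and 70.0 CPM (59.5 to 81.8). GFP was at 52.6 CPM in these cells in H2CKO, far below the endothelial classes. Control cells held Tcf21 at 374 CPM (363 to 386) and H2CKO cells at 585 CPM (554 to 618), 1.56-fold higher (1.47 to 1.66), and had a UMI in 77.2% and 92.5% of thinned cells. Tcf21 thus stood higher in H2CKO but not past 2-fold. In the same cells erythroid markers summed to 11906 CPM in the control against 50003 CPM in H2CKO, and epicardial markers to 2944 against 2238 CPM. Their part in the Tcf21 level was not tested. With no doublets removed the class grew to 1094 and 470 cells and its log2 ratio went from 0.64 to -0.18, while that of Twist1 went from 0.11 to -1.06 and that of Hand2 from -0.11 to -0.46. Doublet removal took 9.35% of the control cells against 5.01% of the H2CKO cells.

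Tcf21 was also high in a small mesenchymal-like cluster led by genes that include Ptn, Hic1 and Ebf1, of which Ptn was among the leading genes of the epicardial-like cells. Its 139 control and 106 H2CKO cells held Tcf21 at 463 CPM (435 to 492) and 517 CPM (478 to 558), Hand2 at 124 CPM (109 to 139) and 106 CPM (89.1 to 126), and Twist1 at 123 CPM (109 to 138) and 120.3 CPM (102 to 141). The exact ratio intervals of Hand2 and Twist1 included 1, and that of Tcf21 ran from 1.01 to 1.23.

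Cardiomyocyte-like control cells held Hand1 at 71.3 CPM (69.2 to 73.5) and H2CKO cells at 50.6 CPM (49.1 to 52.2). That is 1.41-fold lower (1.35 to 1.47) or -0.46 as a log2 ratio, while the median of all genes tested was -0.18 and 22.1% of those genes had a lower ratio. In the same cells smooth muscle and pericyte markers summed to 1846 CPM in the control against 1092.5 CPM in H2CKO and erythroid markers to 12010 against 22027 CPM, and their part in the Hand1 level was not tested. Hand2 was at 82.3 CPM (80.1 to 84.7) and 74.5 CPM (72.6 to 76.4), which is -0.14 as a log2 ratio. Centred on that median, Hand2 had a ratio of 0.04 and Hand1 one of -0.28. After thinning, Hand1 UMIs were found in 26.3% (24.4 to 28.2) of control and 17.5% (16.3 to 18.7) of H2CKO cells, and Hand2 UMIs in 33.9% (31.9 to 35.9) and 30.7% (29.2 to 32.1). The erythroid-like shares for Hand1, also after thinning, were 0.834% and 0.625%. Before thinning the median depths were 18380 and 13230 UMIs in erythroid-like cells, beside 24899 and 17423 in cardiomyocyte-like cells.

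Clustered again by themselves, the cardiomyocyte-like cells gave 12 subclusters, over which Hand1 varied more than Hand2. Hand1 was highest in subcluster 5, at 147 CPM in the control and 128 CPM in H2CKO. This subcluster was led by Nppa, Cited1, Nppb and Gja5, genes of chamber and trabecular muscle. Subcluster 6, led by G2/M genes such as Plk1 and Aurka, held 140.0 and 115 CPM. Subcluster 10, named outflow tract-like but led by Col3a1, Fbln2 and Upk3b, genes of mesenchyme and epicardium, held 101 CPM in both libraries.

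Hand1 was lowest in the atrial-like subcluster 12, with 1.96 CPM (0.535 to 5.03) in 105 control cells. The 3 H2CKO cells there are too few to compare. The atrioventricular canal- and sinus-like subcluster 11, led by Bmp2, Gal and Tbx3, held 24.8 CPM (18.1 to 33.1) against 30.6 CPM (24.3 to 38.0) in H2CKO. Hand2 in the same subclusters was at 84.5 CPM (72.3 to 98.1) in subcluster 12 of the control, and at 131 CPM (115 to 149) and 104 CPM (92.2 to 117) in subcluster 11. Atrial-like muscle of the control thus held Hand2, while its Hand1 did not differ beyond counting error from the erythroid-like level of 1.46 CPM.

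The genotype difference of Hand1 varied as well. Hand1 was at 31.2 CPM in the control and 12.6 CPM in H2CKO in subcluster 2, a ratio of CPM between 0.326 and 0.499 by its exact interval. Subcluster 7 held 27.4 and 10.4 CPM (interval 0.282 to 0.509), subcluster 1 held 38.7 and 18.3 CPM (0.384 to 0.580), and the ventricular-like subcluster 8 held 69.5 and 35.8 CPM (0.416 to 0.640). The 4 subclusters with the lowest ratios included 3 with Hand1 under 40 CPM in the control. In subclusters 5 and 6 the intervals ran from 0.791 to 0.960 and 0.749 to 0.899, and that of subcluster 10 included 1. Before subclustering, Hand1 in the cardiomyocyte-like cluster 14 was higher in H2CKO, at 19.7 against 40.9 CPM (ratio 1.58 to 2.75). That cluster held 104 control and 3 H2CKO cells of the atrial-like subcluster 12, and in the subcluster 11 that supplied most of the rest the ratio interval was 0.849 to 1.82. Subcluster 1 was led by genes that include Ckm, Tnni2 and Mylpf, subcluster 2 by G2/M genes and subcluster 7 by S phase genes.

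Hand2 lay between 47.4 and 139.6 CPM in all 11 subclusters with over 50 cells in each library. The lowest value was in H2CKO cells of subcluster 9, whose leading genes were erythroid, and without that subcluster the lowest was 54.9 CPM. The outflow tract-like subcluster 4 held 111 CPM (104 to 119) against 80.4 CPM (74.0 to 87.1) in H2CKO and was led by Sln, Bmp4, Rspo3 and Sema3c. In subclusters 1, 2 and 7, where Hand1 was lowest in H2CKO beside the control, Hand2 was at 77.4 and 77.2 CPM, 87.8 and 86.5 CPM, and 75.5 and 75.4 CPM. In sums over the same subclusters the 2 genes therefore differed in genotype ratio, and this difference was not tested. Hand2 UMIs were found in 36.6% of control and 29.6% of H2CKO thinned cells of subcluster 1. These shares were 37.1% and 31.8% in subcluster 2 and 31.9% and 31.2% in subcluster 7.

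**Figure D4:**
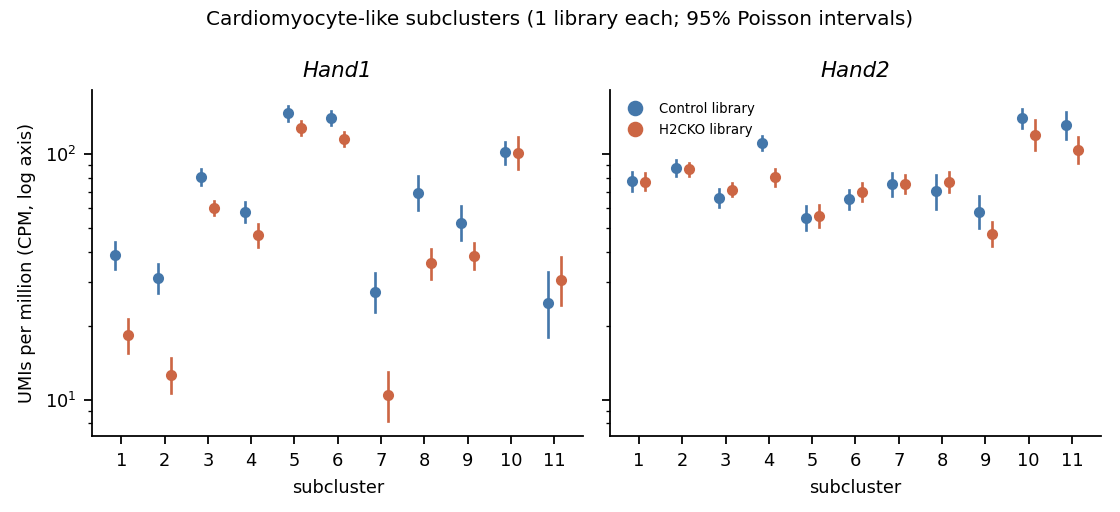
Levels (CPM, log axis) of Hand1 and Hand2 in cardiomyocyte-like subclusters 1 to 11 of the control (blue) and H2CKO (orange) libraries, with 95% Poisson intervals. Hand1 ranges from 10.4 to 147 CPM, and its libraries lie farthest apart in subclusters 1, 2 and 7. Hand2 stays between 47.4 and 139.6 CPM, with its lowest value in subcluster 9, which was led by erythroid genes.

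Co-detection of Hand1 and Hand2 was read in thinned cells, since deeper cells show more of both. In cardiomyocyte-like control cells 187 of 2125 held both, which is 8.80% (7.63 to 10.1), and the product of the 2 shares was 8.90%. A Hand2 UMI was found in 33.5% (29.6 to 37.6) of cells with a Hand1 UMI and 34.0% of those without. In H2CKO 204 of 3925 cells held both, 5.20% (4.52 to 5.94) beside a product of 5.37%, and the shares were 29.7% (26.3 to 33.3) and 30.9%. In neither library did the shares differ beyond their intervals. Without thinning the shares were 82.5% and 78.0% in the control and 71.8% and 66.4% in H2CKO, so the sign of the difference turned with depth. It also turned in H2CKO under a strict cell filter, to 7.33 points.

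Subcluster 10 stood apart among the 12 cardiomyocyte-like subclusters of the control and was chosen for this after the values were seen. There 42 of 55 cells with a Hand1 UMI also held Hand2, which is 76.4% (63.0 to 86.8), beside 42.0% (30.2 to 54.5) of those without. In H2CKO the shares were 37.1% (21.5 to 55.1) and 41.4% (28.6 to 55.1). This is also the subcluster whose leading genes are of mesenchyme and epicardium.

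In mesenchymal-like control cells 69 of 1690 held both genes, 4.08% beside a product of 3.68%. Hand2 was found in 61.6% (51.9 to 70.6) of cells with Hand1 and in 55.1% (52.6 to 57.6) of those without. In H2CKO 25 of 1114 cells held both, 2.24% beside a product of 1.00%, and the shares were 39.7% (27.6 to 52.8) and 16.4% (14.2 to 18.7). Hand1 lay in the subclusters poor in GFP, where 9 of 25 Hand1-positive cells in subcluster 1 and 15 of 31 in subcluster 3 held Hand2. Within the whole of subclusters 1 and 3 of H2CKO, Hand2 was found in 30.9% and 32.8% of thinned cells. Endothelial-like cells held 0 co-detecting cells of 117 in the control and of 459 in H2CKO.

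**Figure D5:**
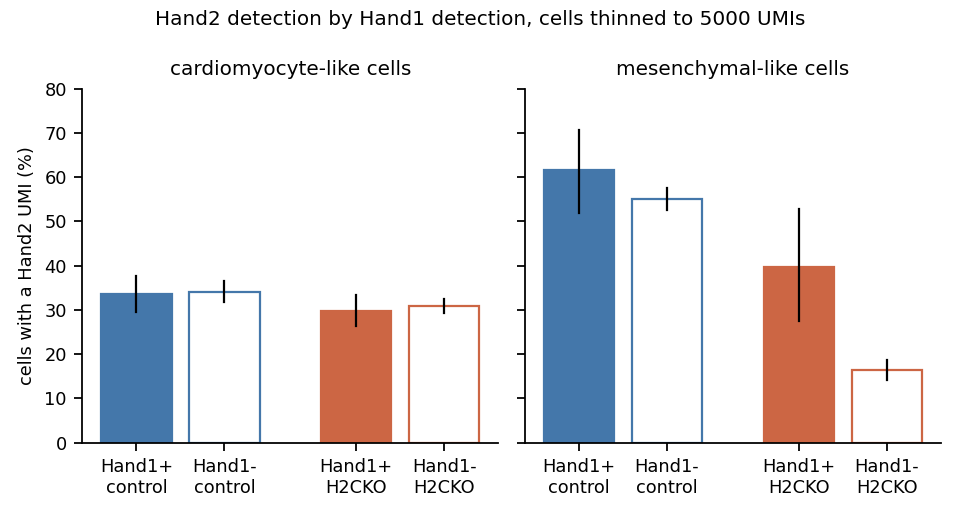
Share of cells with a Hand2 UMI (percent, bars from 0) among cells with (filled) and without (open) a Hand1 UMI, after thinning to 5000 UMIs, with 95% Clopper-Pearson intervals. The bars are near equal in cardiomyocyte-like cells of both libraries. In mesenchymal-like cells of H2CKO they stand at 39.7% and 16.4%.

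Other pairs were read in the same way. Hand2 and Twist1 were together in 51.9% of mesenchymal-like control cells, beside a product of 50.8%, and in 13.5% of the H2CKO cells, beside 14.1%. Twist1 and Tcf21 were together in 26.4% of control and 24.0% of H2CKO mesenchymal-like cells, with products of 28.5% and 24.4%. Among mesenchymal-like control cells, Tcf21 was found in 28.8% of those with Twist1 and 55.6% of those without. In H2CKO these shares were 30.1% and 32.9%. Hand2 and Tcf21 were together in 37.0% of epicardial-like control cells and 37.1% of the H2CKO cells, with products of 36.3% in both. In cardiomyocyte-like control cells Twist1 and Tcf21 were together in 16 of 2125 cells, 0.753% beside a product of 0.132%. Subcluster 10 held 490 of the 877 Twist1 and 243 of the 339 Tcf21 UMIs of this class in the control, and its part in the co-detection was not tested. No UMI of any of the 5 members was found in 1.78% of mesenchymal-like control cells and 11.7% of the H2CKO cells. In endothelial-like cells these shares were 35.9% and 83.2%, in cardiomyocyte-like cells 45.4% and 55.4%, and in erythroid-like cells 95.2% and 97.8%. The 5 members include the deleted gene Hand2, found in 59.0% of endothelial-like control cells and 6.32% of the H2CKO cells, so the rise there largely restates its loss.

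The dimer partners were present in every main class. All 3 E proteins (Tcf3, Tcf4 and Tcf12) were tested in each of 5 classes and 0 were past 2-fold. Tcf12 was highest in mesenchymal-like cells, at 284 CPM in the control and 152 CPM in H2CKO, a log2 ratio of -0.88. Of 4 Id genes, 3 were tested in each class but the epicardial-like one, where all 4 were, and 0 were past 2-fold. In endothelial-like cells Tcf3 was at 113 and 81.2 CPM and Tcf4 at 159.5 and 189 CPM. In mesenchymal-like cells Id1 was at 627 and 623 CPM. Id2 there was at 1138 and 648 CPM, a log2 ratio of -0.81, and Id3 at 1351 and 1613 CPM, a log2 ratio of 0.25. The median over the E proteins in mesenchymal-like cells was -0.59 and that over the Id genes -0.01, with -0.24 over all genes.

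Other bHLH genes were read from fixed lists. Of 10 further genes related to Twist or to the SCL group, 3 were tested in endothelial-like cells, and Tcf15, a factor of capillary endothelium of the heart, was past 2-fold higher, at 8.37 CPM in the control and 29.3 CPM in H2CKO (log2 ratio 1.36), where 1.42% of all genes tested were past 2-fold higher. The other 2 tested, Tal1 and Lyl1, factors of blood and endothelium, were at 41.4 and 24.3 CPM and at 73.8 and 53.7 CPM. Scx, a factor of tendon and valve precursors, was at 41.1 and 32.9 CPM in mesenchymal-like cells. Of 7 Hairy-related genes 3 were tested in mesenchymal-like cells, and Hes1, a target of Notch, was past 2-fold higher, at 154 and 366 CPM (1.22), where 0.416% of genes were. Of 3 tested in endothelial-like cells Hey1, another, was past 2-fold lower, at 50.2 and 15.9 CPM (-1.40), where 8.34% of genes were, but not in the second endothelial cluster, at 41.3 and 53.3 CPM (0.33). There Hey2 was at 142 and 88.0 CPM (-0.66).

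Of 11 cardiac transcription factors 6 were tested in endothelial-like cells, and 4 were past 2-fold lower, where 8.34% of all genes tested were. These were Gata4 (100.4 to 45.1 CPM), Gata5 (61.5 to 4.26 CPM), Tbx5 (33.0 to 1.58 CPM) and Tbx20 (from 83.7 CPM, log2 ratio -2.39). The median over the 6 genes was -1.73, beside -0.26 over all genes tested in the class. The mesenchymal markers given above (899 against 251 CPM) were lower in these cells too, and erythroid markers were at 26154 against 42394 CPM. Their part in the list's values was not tested. In the second endothelial cluster 2 of 5 tested were past 2-fold lower, Tbx20 (365 to 171 CPM) and Gata6 (191 to 91.2 CPM), where 3.43% of genes were. The median over those 5 was -0.52, beside -0.23 over all genes. Gata4 there was at 222 and 153 CPM, and erythroid markers were at 15056 against 50014 CPM. In mesenchymal-like cells 1 of 7 tested, Tbx20, was past 2-fold lower (503 to 238 CPM), where 3.49% of genes were, with a list median of -0.63. Gata6 there was at 419 and 257 CPM. Sox9, a factor of cushion mesenchyme and cartilage, was the 1 of 3 mesenchymal factors tested that was past 2-fold lower in endothelial-like cells (29.0 to 3.94 CPM), and the 1 of 7 in the second endothelial cluster (144 to 58.5 CPM). In mesenchymal-like cells it was at 567 and 312 CPM, a log2 ratio of -0.85, and 9 of 10 mesenchymal factors were tested with 0 past 2-fold and a median of -0.53. Prrx2 was at 205 and 163 CPM there and Meox1 at 163 and 105 CPM. In epicardial-like cells 1 of 4 epicardial factors tested, Bnc1, was past 2-fold lower (92.4 to 43.7 CPM), where 5.46% of genes were, and the list median was -0.83 beside -0.22 over all genes. Erythroid markers in epicardial-like cells were at 11906 against 50003 CPM, and their part in the list's values was not tested. Of 5 mesenchymal factors tested there 1, Prrx2, was past 2-fold higher (22.0 to 53.9 CPM), where 0.542% of genes were. Nr2f2, of the epicardial list, was highest in endothelial-like cells, at 166 and 194 CPM. Wt1 and Tbx18 had log2 ratios of -0.24 and -0.73 in epicardial-like cells. Sox9, Bnc1, Wt1 and Tbx18 were also among the markers by which the classes were named.

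Genes with the most similar pattern to each member were taken over 13 clusters of the control library among 8586 genes, as a description over clusters that share a library. For Hand1 these were Cend1 (r = 0.97), Lgi2, Cnn1, Cxcl12 and Spsb4, and for Hand2 Igf2 (0.99), Tead2, Nrep, Nckap1 and Rara. Over the same clusters in H2CKO the r of Hand2 with these 5 genes was 0.74 to 0.82, and since they were picked for the highest r in the control, a lower value there is no finding. For Twist1 they were Serpinf1 (0.97), Sox5, Arhgef40, Cttnbp2 and Col27a1, for Twist2 Cda (0.97), Col9a1, Cdkn2b, Matn4 and Akr1cl, and for Tcf21 Spon2 (0.98), Pdlim2, Col16a1, Serping1 and Rgs17. Within the family Twist1 and Twist2 were the closest pair, at 0.87 in the control and 0.81 in H2CKO. Hand1 and Hand2 were at 0.37 and 0.64. Twist1 and Hand2 were at 0.79 in the control and 0.44 in H2CKO.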

How the data were processed

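The data were, per the file headers, 1 matrix of raw UMI counts and 1 table of embedding coordinates for each library. The authors' counts are not normalized. The submitters' processing notes name Cell Ranger 5.0.1, Seurat 4 and GRCm38.p6, without saying which step each served. The coordinates are a deposited score without a unit and marked the cells of 1 alternative. Libraries were 10x Genomics 3' libraries, per the labels' protocols. Of 22401 features, 22285 matched a symbol, and 16 IDs that shared one were named with their ID.

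Barcodes under 500 genes or over 10% mitochondrial UMIs were dropped. Scrublet (scanpy 1.11.5) marked 920 of 9841 control cells as doublets and 0 of 12141 in H2CKO, so there the 608 top-scoring cells (5%) were dropped instead. The 2000 most variable genes, without the members, reporters, haemoglobin, mitochondrial and sex-linked genes, gave 30 components. Leiden clustering (leidenalg 0.10.2, resolution 1) used 15 neighbours from each library. Clusters were named by the marker list with the highest median log2 fold.

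UMIs were summed per class and library. Intervals are 95% exact Poisson, Clopper-Pearson or conditional (scipy 1.17.1). They cover counting error only, and no p-value was computed. The ratio step was tested on simulated data. The text names all members, the 3 highest genes of each list with those past 2-fold, and the 5 genes most like each member. The members and lists were chosen with earlier results of these data known. Hand2os1 was not analysed here. Alternatives changed the cell filter, doublets, depth, naming, resolution, neighbours, cells, scaling and offset.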

Additional observations from a re-analysis of the deposited data

Results flagged for a closer look

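Twist1 was past 2-fold in opposite directions in different classes. Its log2 ratio of H2CKO over control was -1.02 in endothelial-like cells and -1.37 in the second endothelial cluster, and 1.55 in white blood cell-like cells. The difference between the classes was not tested. In white blood cell-like cells it rests on 5 UMIs in the control and 28 UMIs in H2CKO, of which 23 were in 1 cell and the rest in 3 others.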

How the results depend on the processing

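No paired analysis was possible because each group has 1 library. Over 14 ratios and co-detection differences, 126 alternative values were computed, of which 87 stayed within the counting interval, 29 lay beyond it with the same sign and 10 changed sign. Hand1, Twist1, Twist2 and Tcf21 were highest in the same class of the control under all 8 alternatives that redraw, thin or leave out cells. Hand2 was so under 2 of them, and was highest in endothelial-like or mesenchymal-like cells under the other 6. The log2 ratio of Hand1 in cardiomyocyte-like cells went from -0.46 to -0.58 with the strict cell filter (1452 and 419 cells left), -0.65 with thinned cells, -0.53 with neighbours not balanced and -0.28 when centred on the median gene. That of Hand2 in mesenchymal-like cells (-1.63) was -1.80 with the strict filter, -1.82 with thinned cells, -1.42 with each cell named by its own markers, -1.83 at resolution 0.5 and -1.39 when centred. That of Twist1 there (-0.98) was -0.77 with each cell by its own markers, -0.93 in the cells of the embedding and -0.74 when centred. Tcf21 in epicardial-like cells (0.64) was at -0.18 with no doublets removed, 0.52 at resolution 0.5 and 0.86 when centred. Hand2 in endothelial-like cells (-3.28) was at -3.85 with each cell by its own markers, and at -3.84 both at resolution 0.5 and with both endothelial clusters together, an alternative added after seeing the data. Twist1 in endothelial-like cells (-1.02) turned to 0.39 with neighbours not balanced, and was at -1.85 with no doublets removed, -1.64 with thinned cells, -1.81 both at resolution 0.5 and with both endothelial clusters together, -1.44 in the cells of the embedding and -0.76 when centred. Twist1 in epicardial-like cells (0.11) turned to -1.06 with no doublets removed, Tcf21 in mesenchymal-like cells (0.13) to -0.01 at resolution 0.5, and Hand2 when centred to 0.04 in cardiomyocyte-like (-0.14) and 0.12 in epicardial-like cells (-0.11). The share of cardiomyocyte-like cells with Hand2, in cells with Hand1 minus those without, was -0.50 points in the control and -1.19 points in H2CKO. It turned to 4.44 and 5.36 points without thinning (added after seeing the data), to 1.10 in the control with neighbours not balanced, and to 7.33 in H2CKO with the strict filter. The cause of these shifts was not tested. Twist2 stayed under the limit of 20 CPM in each class, at 19.1 CPM in mesenchymal-like control cells.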
